A study of Mus musculus with 2 samples.

Results

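The genes described here are 9 genes of the podocyte slit diaphragm and foot process (Nphs1, Podxl, Synpo, Ptpro, Magi2, Cd2ap, Actn4, Plce1 and Clic5), out of 21670 protein-coding genes of the autosomes and chromosome X. They were chosen by name and not by a measured value, but with earlier results of these data known. Each was read over its GENCODE M21 gene body plus 10 kb on each side. DNase-seq, which sequences the ends left where the enzyme DNase I cuts open chromatin, was run on whole kidney tissue of adult female B6CASTF1/J mice, a first-generation cross of C57BL/6J and CAST/EiJ, aged 8 to 10 months. The study holds 1 group of 2 libraries, labelled biological replicates 1 and 2, from separate tissue samples that share a donor entry. The labels do not say whether these came from separate animals, and their spread may therefore be technical. No test across samples was possible. Effects of the CAST/EiJ allele on mapping were not tested.

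Podocytes are the epithelial cells that wrap the glomerular capillaries, and the slit diaphragm is the junction that bridges their interlocking foot processes. Nephrin, the product of Nphs1, forms the extracellular zipper of this junction, adaptor and scaffold proteins such as CD2AP and MAGI2 anchor it, and actin regulators such as synaptopodin and alpha-actinin-4 hold the foot process in shape. Inherited defects of several of these genes cause nephrotic syndrome. Podocytes are a small minority of the cells of whole kidney, and in bulk tissue fewer cells of a type and less accessibility per cell cannot be told apart.

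A region is a stretch where peaks of both libraries overlap by at least 1 base, and its value is the deposited peak signal of each library, given as replicate 1 and replicate 2 and then as mean ± SD (n = 2). The member windows held 97 such regions of 96735 in all. Of 151 distal and 14 promoter peaks in these windows, 86 and 9 were found in both libraries, beside 57.5% and 76.2% of all such peaks. Of the 97 regions, 9 lay within 500 bases of a coding start of a member (promoter regions), 2 lay at the promoter of the neighbouring gene Prodh2, and 86 were distal, meaning outside the promoter windows of all protein-coding genes. The peak lists held 137060 and 124976 peaks, and the signal of 100% of them was a whole multiple of a step of 0.00827 or 0.00834. If a step is 1 tag and the signal is per M tags (M, mega), the depths were 120.9 M and 119.9 M tags, an inference from the values. Immune marker genes had a promoter region in 0 of 8 cases, and proximal tubule genes in 10 of 10, beside 63% of all genes. Distal regions were found at 6 of the 8 immune and all 10 proximal tubule genes, beside 72.4% of all genes.

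The sequences that carry the contrast between the promoters are shown first, on GRCm38 (mm10) and 5′ to 3′ on the gene's strand. A footprint is a short stretch that was cut less than its surroundings, as happens where a protein covers the DNA. In the promoter regions of Actn4, Cd2ap and Podxl, capitals mark bases inside a shared footprint. A shared footprint is the full span of overlapping footprints of both libraries, so a capital base may be covered in a single library only.
Actn4 promoter (chr7:28962341-28962560, minus strand): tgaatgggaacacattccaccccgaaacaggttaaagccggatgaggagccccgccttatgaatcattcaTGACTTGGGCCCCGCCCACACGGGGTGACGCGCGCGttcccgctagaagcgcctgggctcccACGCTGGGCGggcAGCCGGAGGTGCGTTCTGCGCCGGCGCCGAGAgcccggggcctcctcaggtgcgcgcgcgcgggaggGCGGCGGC
Cd2ap promoter (chr17:42876581-42876820, minus strand): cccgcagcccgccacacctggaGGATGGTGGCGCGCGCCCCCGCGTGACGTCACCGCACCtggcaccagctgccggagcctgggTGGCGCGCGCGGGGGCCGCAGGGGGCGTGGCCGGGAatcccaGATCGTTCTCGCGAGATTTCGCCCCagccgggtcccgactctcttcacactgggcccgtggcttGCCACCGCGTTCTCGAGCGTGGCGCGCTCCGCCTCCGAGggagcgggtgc
Podxl promoter (chr6:31563982-31564220, minus strand): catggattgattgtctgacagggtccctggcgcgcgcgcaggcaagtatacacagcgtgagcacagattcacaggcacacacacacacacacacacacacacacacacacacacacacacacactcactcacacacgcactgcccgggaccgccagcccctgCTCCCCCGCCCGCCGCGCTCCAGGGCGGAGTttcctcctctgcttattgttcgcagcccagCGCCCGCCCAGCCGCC
In Actn4, 86 of the 220 bases shown lay in 4 shared footprints, and in Cd2ap 138 of 240 bases did. The Podxl stretch carries a long CA repeat, and 47 of its 239 bases lay in 2 shared footprints next to the start of transcription. Below are the 200 bases before the first annotated coding start of the 3 members without a promoter region, with each CG pair in capitals.
Nphs1 upstream (chr7:30458115-30458314, plus strand): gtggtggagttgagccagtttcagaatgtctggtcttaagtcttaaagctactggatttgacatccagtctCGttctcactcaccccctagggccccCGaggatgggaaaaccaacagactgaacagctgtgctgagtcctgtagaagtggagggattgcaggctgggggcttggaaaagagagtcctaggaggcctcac
Ptpro upstream (chr6:137252134-137252333, plus strand): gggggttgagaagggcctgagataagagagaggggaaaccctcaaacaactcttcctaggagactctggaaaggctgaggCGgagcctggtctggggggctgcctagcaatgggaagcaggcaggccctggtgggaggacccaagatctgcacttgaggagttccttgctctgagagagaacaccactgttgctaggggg
Plce1 upstream (chr19:38480921-38481120, plus strand): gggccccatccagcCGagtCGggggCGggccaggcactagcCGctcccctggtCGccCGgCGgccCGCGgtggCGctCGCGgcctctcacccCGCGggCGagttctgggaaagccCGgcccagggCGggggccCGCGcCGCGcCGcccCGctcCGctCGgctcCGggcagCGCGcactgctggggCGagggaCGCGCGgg
The Nphs1 and Ptpro stretches hold 2 and 1 CG pairs and the Plce1 stretch holds 32, so the closed starts differ in base composition among themselves. The distal sequences below come from the strongest distal region of 5 members, again with bases inside a shared footprint in capitals.
Actn4 intron 1 (chr7:28925401-28925640, minus strand): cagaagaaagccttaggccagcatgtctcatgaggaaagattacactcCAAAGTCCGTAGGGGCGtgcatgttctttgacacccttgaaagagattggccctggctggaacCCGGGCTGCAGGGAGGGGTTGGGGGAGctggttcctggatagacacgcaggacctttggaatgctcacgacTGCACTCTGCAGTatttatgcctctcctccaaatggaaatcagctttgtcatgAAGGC
Nphs1 downstream (chr7:30492861-30493060, plus strand): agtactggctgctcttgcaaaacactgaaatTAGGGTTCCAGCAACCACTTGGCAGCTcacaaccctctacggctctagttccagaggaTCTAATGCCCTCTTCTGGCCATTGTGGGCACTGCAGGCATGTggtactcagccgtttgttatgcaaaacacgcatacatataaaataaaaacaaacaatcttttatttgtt
Clic5 intron 4 (chr17:44256721-44256920, plus strand): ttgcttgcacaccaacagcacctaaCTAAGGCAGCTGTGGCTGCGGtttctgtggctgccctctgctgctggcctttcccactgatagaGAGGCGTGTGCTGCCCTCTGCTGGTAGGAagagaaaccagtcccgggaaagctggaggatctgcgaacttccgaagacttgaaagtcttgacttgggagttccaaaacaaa
Ptpro downstream (chr6:137471261-137471440, plus strand): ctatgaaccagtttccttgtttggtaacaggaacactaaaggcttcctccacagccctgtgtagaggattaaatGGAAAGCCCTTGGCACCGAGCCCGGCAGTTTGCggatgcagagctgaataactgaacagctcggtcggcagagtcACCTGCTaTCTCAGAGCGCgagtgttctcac
Plce1 intron 4 (chr19:38687401-38687640, plus strand): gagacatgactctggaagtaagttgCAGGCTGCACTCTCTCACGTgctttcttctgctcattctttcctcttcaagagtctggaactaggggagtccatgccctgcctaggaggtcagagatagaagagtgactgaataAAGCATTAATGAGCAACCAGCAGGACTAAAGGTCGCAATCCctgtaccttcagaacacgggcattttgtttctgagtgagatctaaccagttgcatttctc
The Nphs1 and Clic5 stretches carry a match to the core of the binding sequence of the insulator protein CTCF inside capitals, CCCTCTTCTGG in Nphs1 and CCCTCTGCTGG in Clic5. None of the 20 patterns searched matched in the Actn4, Ptpro and Plce1 stretches, which hold 4, 3 and 2 shared footprints.

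Of the 9 members, 6 had a promoter region of both libraries (Podxl, Synpo, Magi2, Cd2ap, Actn4 and Clic5), beside 63% of all protein-coding genes. Nphs1, Ptpro and Plce1 had none. All 6 open members also had a footprint of both libraries in a promoter region, as did 93% of all genes with a promoter region. The median of the strongest promoter signal was 1.95 over the 6 open members and 4.78 over the 13643 open genes. The members were thus open about as often as other genes, and 4 of the 6 open promoters lay at or below percentile 24.5 of open genes.

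**Figure D1:**
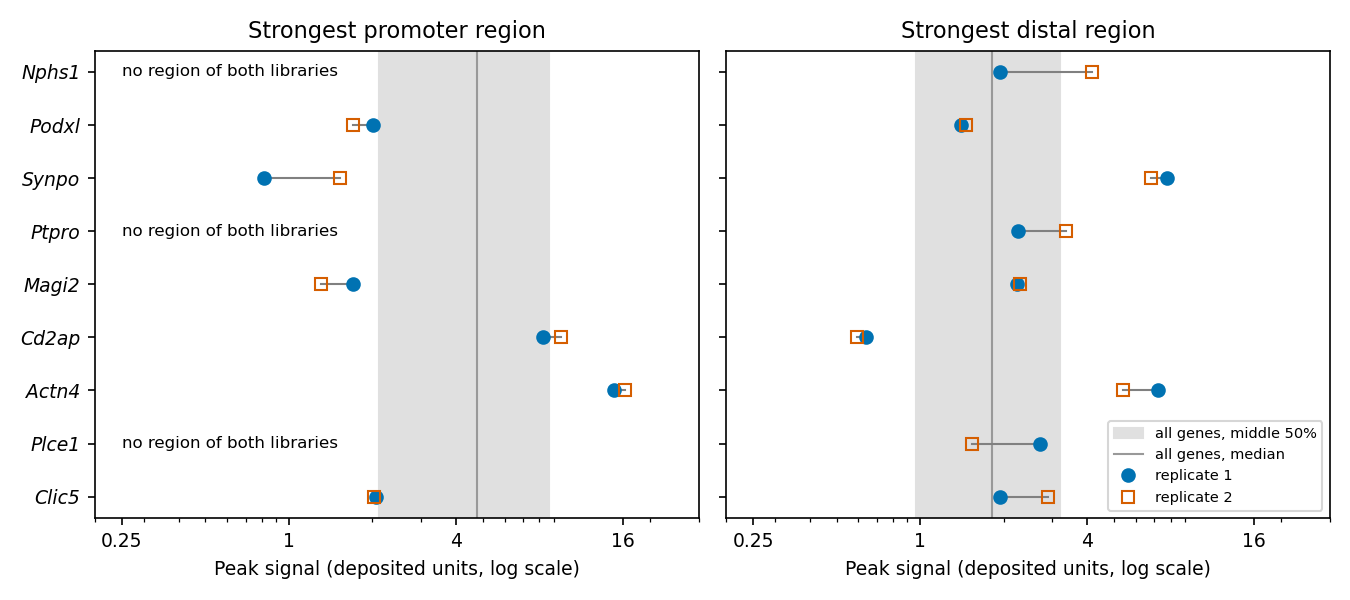
Peak signal (log axis) of the strongest promoter region (left) and strongest distal region (right) of each member in replicate 1 (filled circles) and replicate 2 (open squares); the grey band and line are the middle 50% and the median over all genes with such a region. Actn4 at 15.6 and Cd2ap at 8.91 are the only promoters above the median of 4.78, while Nphs1, Ptpro and Plce1 have only distal regions.

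Actn4 encodes alpha-actinin-4, an actin cross-linker that is made in many cell types besides podocytes. Its promoter region (chr7:28962241-28962560, exon 1 and the bases before it) had a signal of 14.9 and 16.3, a mean of 15.6 ± 0.973, at percentile 94.5 of open genes. Cd2ap, the adaptor that links nephrin to the cytoskeleton and is also widely made, followed with 8.24 and 9.58 (8.91 ± 0.945, percentile 76.2) at chr17:42876581-42876820. A weaker second promoter region of Cd2ap over exon 1 (chr17:42875621-42876360) had 0.736 and 1.13. These promoters stood apart from the other 4, whose means lay between 1.17 and 2.05. For Cd2ap this depends on the window, since with 100 bases on each side only the weaker region counts and its strongest signal is 0.931.

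Clic5, a chloride intracellular channel family protein of the ezrin and podocalyxin complex, had a promoter signal of 2.07 and 2.03 (2.05 ± 0.0231) at chr17:44188501-44188800. Podxl encodes podocalyxin, the negatively charged sialomucin that coats the podocyte surface and is also made by endothelium. Its promoter region (chr6:31563881-31564220) had 2.01 and 1.70 (1.86 ± 0.218). Magi2, which encodes a scaffold protein with PDZ domains, had 1.70 and 1.30 (1.50 ± 0.285) just before its first start (chr5:19226501-19226860). A start of 4921504A21Rik lies in that Magi2 region or within 500 bases of it. A second Magi2 promoter region, at an internal start about 1001 kb after the first (chr5:20227934-20228260), had 0.413 and 0.317. In the order of the levels, Actn4, Cd2ap, Clic5 and Podxl did not overlap between neighbours. Podxl and Magi2 met at 1.70, and Magi2 and Synpo overlapped.

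Synpo, which encodes the actin-associated protein synaptopodin, was open only at internal starts. Its promoter regions lay 24.0 and 25.3 kb after the first coding start (chr18:60624161-60624380 and chr18:60622934-60623160), with 0.810 and 1.53 (1.17 ± 0.506) at the stronger one and 0.670 and 1.13 at the other. Both were higher in replicate 2. In the 1001 bases around the first coding start of Synpo, neither library listed a base at a false discovery rate (FDR, the deposited q-value of the cut rate) under 0.05. Distal regions nearby, at -0.791 kb (2.12 and 3.18) and 4.62 kb (1.66 and 3.10) from that start, lay outside the window. With windows of 2000 bases the region at -0.791 kb counts as a promoter region, and the strongest Synpo promoter signal is 2.65. Being open only at internal starts thus depends on the window.

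The 3 closed members include the defining slit diaphragm gene. Nphs1, Synpo and Ptpro had 0 bases listed at the FDR threshold within 500 bases of the first start in either library, whereas 60% of all genes had a base listed in both. Ptpro encodes a receptor-type tyrosine phosphatase of the podocyte surface. Plce1 encodes phospholipase C epsilon 1, and its start had 0 listed bases in replicate 1 and 402 in replicate 2, with a peak of 0.584 called in replicate 2 alone. The Plce1 promoter is therefore the only one of the 3 closed promoters on which the libraries differ.

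The members without an open first start differed in CpG content. CpG observed over expected in the surrounding 1000 bases was 0.158 at Nphs1 and 0.255 at Synpo, and among all genes in the same deciles of that value 18.6% and 30.2% had a promoter region. At Ptpro it was 0.619 and at Plce1 0.767, and 83.4% and 92.5% of genes in their deciles had one. These shares count a promoter region at any coding start of a gene, while the CpG content is that of the first start. Genes without any promoter region were thus common at the CpG content of Nphs1 and uncommon at that of Ptpro and Plce1. The open members with an open first start spanned 0.602 (Clic5) to 0.907 (Actn4).

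All 9 members had at least 1 distal region, as did 72.4% of all protein-coding genes. The median was 9 distal regions per member and 2 per gene over all genes, and the member windows are long (48.9 to 1498 kb, against a median of 37.4 kb). Per 100 kb of window the medians were 5.38 and 3.79. The median distal signal of 0.955 over the 86 regions was near the 0.918 over all 77375 distal regions. Of the 86, introns held 69, exons 3, the upstream flanks 3 and the downstream flanks 6. The remaining 5 lay in parts of the Synpo gene body outside its transcript Synpo-205.

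**Figure D2:**
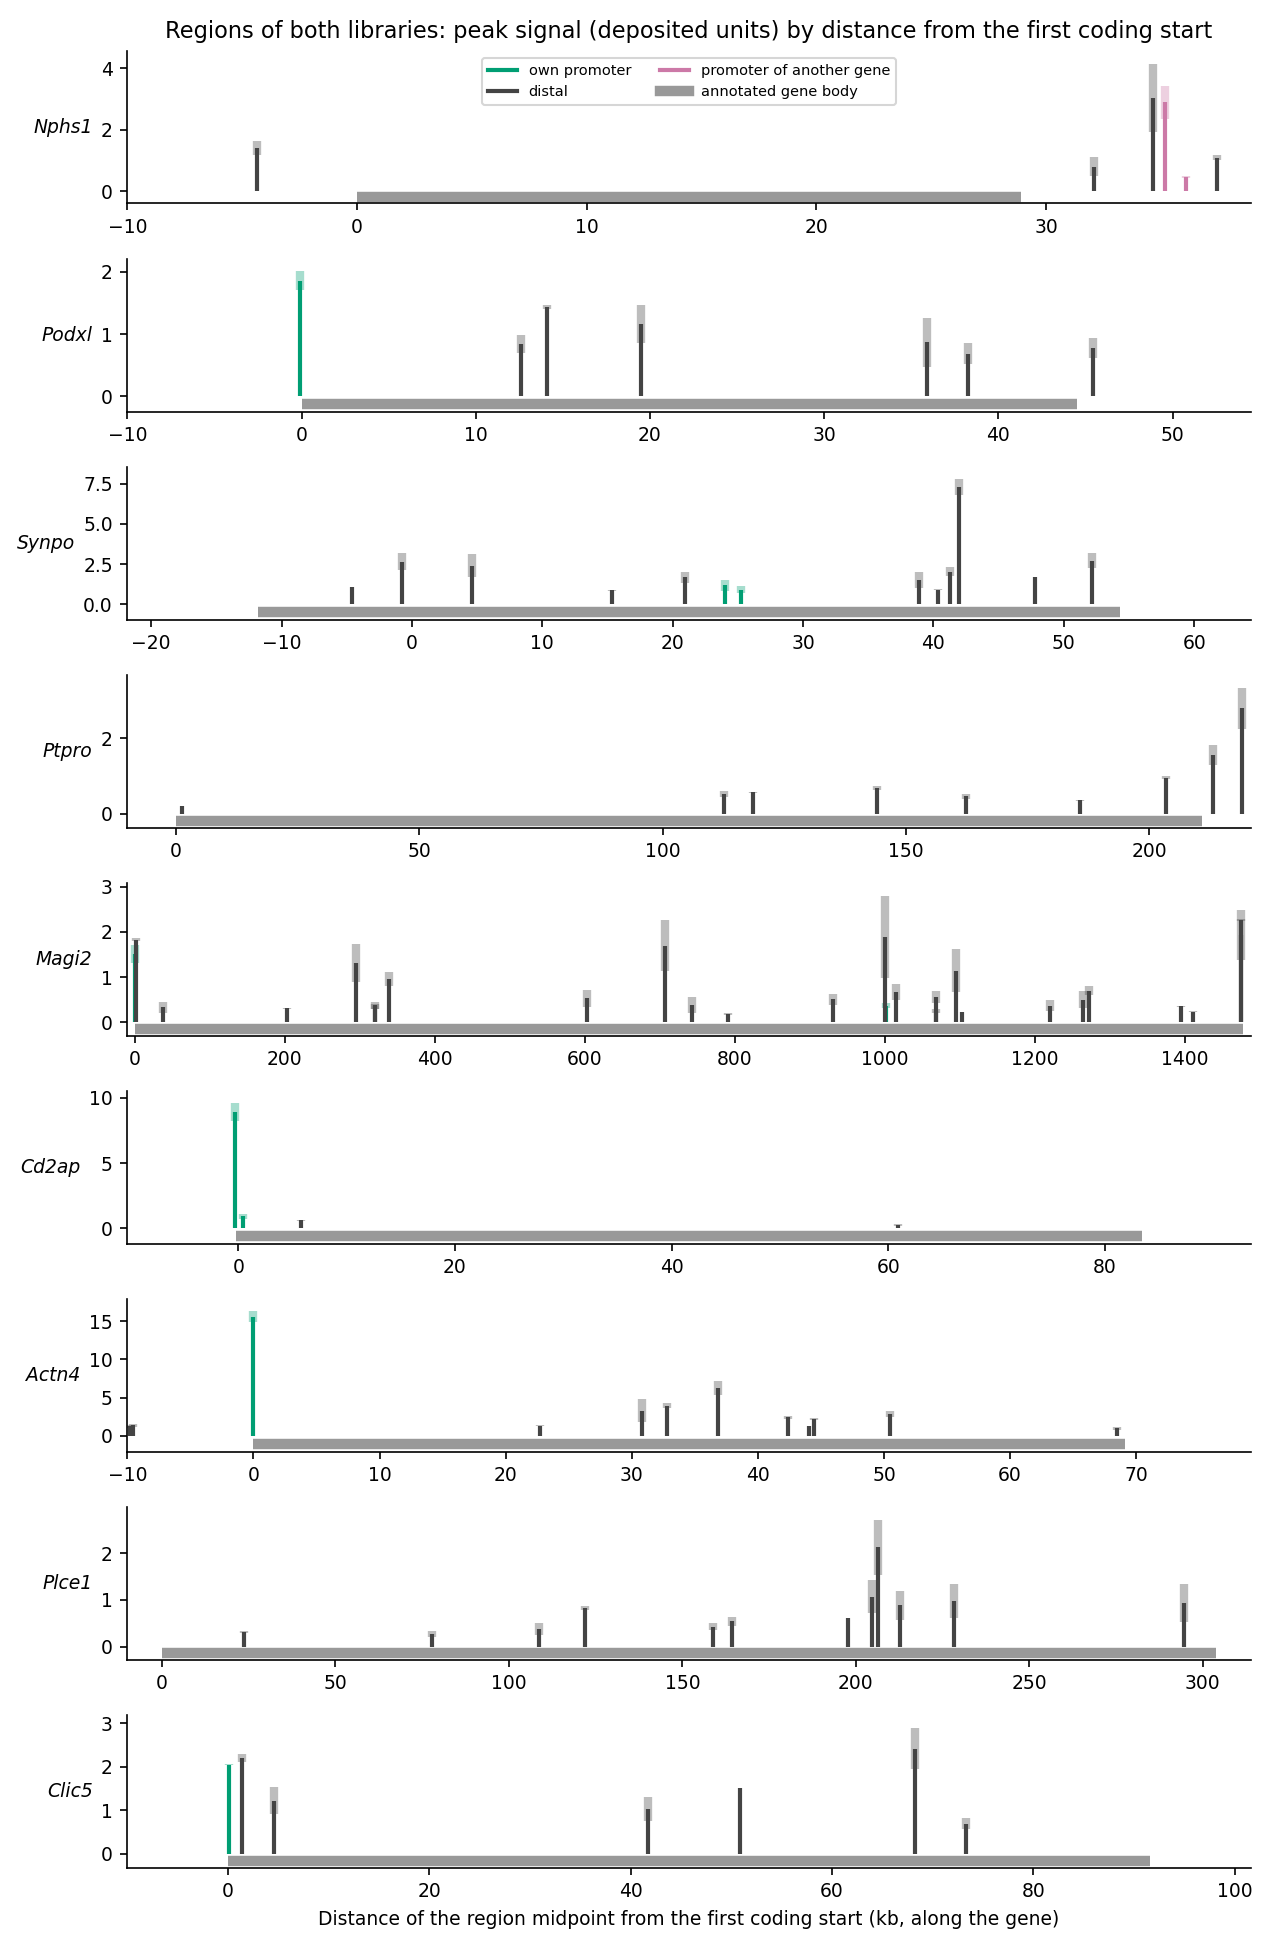
Mean peak signal (vertical axis, deposited units, a scale per gene) of each region of both libraries by distance in kb from the first coding start of the 9 members, with the range of the libraries as a pale bar and the gene body in grey. Nphs1, Ptpro and Plce1 show no green promoter line, and the strongest lines of Nphs1 and Ptpro stand beyond the end of the gene.

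**Figure D3:**
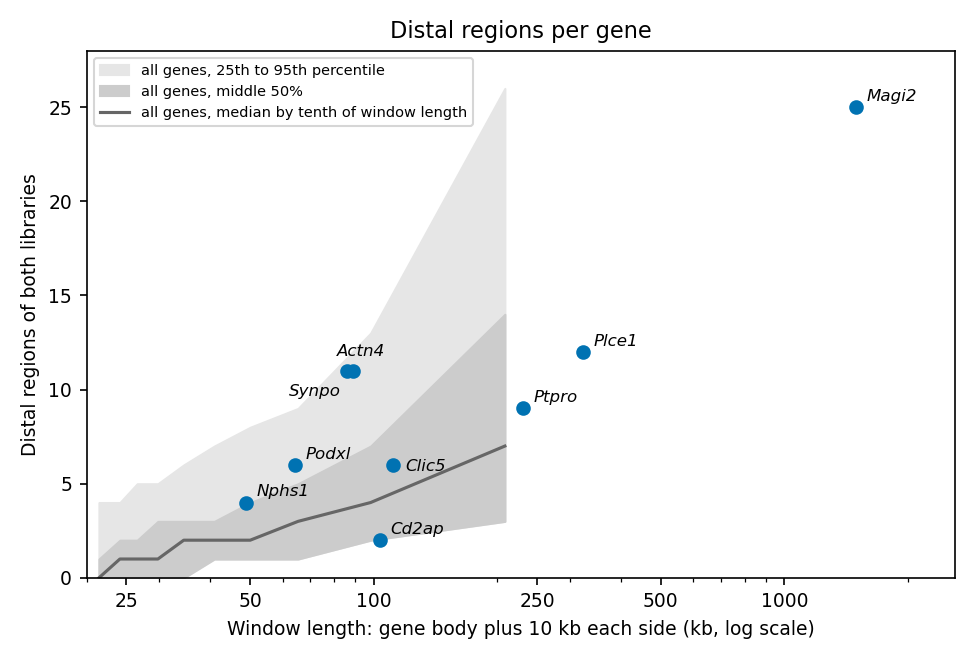
Number of distal regions of both libraries in each member window against window length (log axis), with the median and the percentile ranges of all genes by decile of window length (the last decile runs to 4455 kb and is drawn at its median of 209 kb). Synpo and Actn4 with 11 regions each lie well above the median of 4 of their decile, and Cd2ap with 2 lies below it.

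Set against genes of like window length, Synpo and Actn4, with 11 distal regions each, stood at percentile 92.0 of their decile. In replicate 1 alone (without replicate 2) they had 26 (Actn4) and 17 (Synpo). Magi2 had 25 in its gene body of 1478 kb, percentile 94.4 of the longest decile, although its density of 1.67 per 100 kb was the lowest of the 9. With peaks at or above the median signal of their library, Magi2 had 6 and Plce1, with 12 otherwise, had 1, and with the shorter peak list they had 14 and 6. Cd2ap, with 2, stood at percentile 25.6. The others were Plce1 with 12, Ptpro with 9, Podxl and Clic5 with 6 and Nphs1 with 4, between percentiles 58.6 and 82.6 of their deciles. Cd2ap, with a strong promoter and few weak distal sites, and Synpo, with a weak internal promoter and many strong distal sites, were the extremes of this set.

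In 6 of the 9 members the strongest distal region exceeded every promoter region, or no promoter region existed, against 33.3% of all genes. The member windows are all longer than the median of 37.4 kb, and longer windows hold more distal regions. The share among genes of like window length was not computed. Synpo had the strongest distal region of all members, 7.78 and 6.80 (7.29 ± 0.691) at chr18:60606221-60606540, in intron 1 of Synpo-205. It lay 41.9 kb after the first start and 3.725 kb after the nearest annotated coding start of Synpo. Its signal was 6.24 times that of the strongest Synpo promoter region, a ratio that depends on the promoter window. The region stood at percentile 95.4 of the strongest distal regions of all genes. Its neighbour at chr18:60606841-60607200 had 2.30 and 1.77. Both held shared footprints, 5 and 4 of them.

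Actn4 had its strongest distal regions in intron 1. The region at chr7:28925401-28925640, whose sequence is shown above, had 7.19 and 5.38 (6.28 ± 1.28), and the one at chr7:28929461-28929680 had 4.31 and 3.62 (3.96 ± 0.487). Another, at chr7:28931361-28931720, had 4.87 and 1.78, a difference of over 2-fold. Upstream of Actn4, regions with means of 1.39 and 1.25 lay inside the body of the neighbouring gene Eif3k. The Actn4 window was therefore strong both at the promoter and along intron 1.

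Nphs1 had no region of both libraries inside its gene body. The strongest region of its window lay 34.6 kb after the start, in the downstream flank (chr7:30492861-30493060), with 1.93 and 4.16 (3.05 ± 1.57). It lies next to the Prodh2 promoter region at chr7:30493361-30493600 (3.44 and 2.36), and Prodh2 encodes a hydroxyproline dehydrogenase. Upstream, the region at chr7:30453861-30454080 had 1.19 and 1.63 and lies inside the body of Kirrel2, which encodes a nephrin-related adhesion protein of the slit diaphragm. It was also the only distal region of the Kirrel2 window, and Kirrel2 had no promoter region either.

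Ptpro and Plce1, the other closed members, both had distal regions above the weakest open promoters. The strongest Ptpro region was downstream of the gene (chr6:137471261-137471440), with 2.26 and 3.35 (2.80 ± 0.774), and a second downstream region at chr6:137465341-137465600 had 1.83 and 1.29. Within the Ptpro gene body the highest mean was 0.955, in intron 25. Plce1 had its strongest region in intron 4 (chr19:38687401-38687640), with 2.71 and 1.53 (2.12 ± 0.833), inside a group of 4 regions in that intron with means from 0.606 to 2.12. At 206 kb from its first start, this region lies far from any promoter window of Plce1.

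Clic5 had its strongest distal region in intron 4 (chr17:44256721-44256920), with 1.94 and 2.90 (2.42 ± 0.678). A region 1.38 kb after the Clic5 start, in intron 1, had 2.11 and 2.29 and so about the signal of the promoter itself. Magi2 had its strongest distal region over exon 23, at the far end of the gene (chr5:20701981-20702320), with 2.24 and 2.28 (2.26 ± 0.0310). A start of Gm29254 and one of a Magi2 transcript outside the protein-coding type lie in that region or within 500 bases of it. Podxl reached 1.41 and 1.47 (1.44 ± 0.0437) in intron 1 (chr6:31549781-31550000), below its promoter, and Cd2ap 0.637 and 0.592 (0.614 ± 0.0316) in intron 1 (chr17:42870561-42870760).

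Footprints of both libraries in the member windows numbered 128, of which 124 lay in regions of both libraries. Of the 86 distal regions, 51 (59.3%) held one, beside 63.2% of all distal regions. Of the 9 promoter regions, 6 did, beside 77.4% of all promoter regions. The share followed the signal. In the strongest quartile of all distal regions, 23 of 23 member regions held a shared footprint (96.4% of all), and in the weakest quartile 4 of 25 did (18.1% of all). Actn4 had 31 shared footprints in its window and Synpo 29, while Cd2ap had 5, of which 4 were at its promoter region, and neither of its distal regions held one.

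At the FDR threshold of 0.05, the member windows had 44.5 kb listed in replicate 1 and 38.2 kb in replicate 2, with 30.4 kb listed in both. As a share of the window, the bases listed in both ran from 0.574% at Magi2 to 5.10% at Nphs1, with a median of 2.70% for the members and for all genes alike. The Nphs1 share includes its flanks, where all its regions of both libraries lay, among them those at the Prodh2 promoter. Ptpro and Plce1, with 0.933% and 0.953%, were low beside Synpo at 4.20% and Actn4 at 4.34%. Magi2, Ptpro and Plce1, the lowest, also have the longest windows (1498, 231 and 324 kb).

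Between the libraries, 16 of the 86 distal regions (18.6%) differed by over 2-fold, beside 14.2% of all distal regions. None of the 9 promoter regions did, beside 2.99% of all promoter regions. Over the member distal regions the log2 ratio, replicate 2 over replicate 1, had a median of -0.06, against -0.07 over all distal regions. Within genes the balance was uneven. In Magi2, 17 of 25 distal regions were higher in replicate 1, and in Ptpro 8 of 9 were higher in replicate 2, by log2 ratios of at most 0.57, while of all distal regions 54.3% were higher in replicate 1 and 45.7% in replicate 2. The largest difference towards replicate 1 was in intron 5 of Magi2 (chr5:20226841-20227140), with 2.80 and 0.984, and this region carries the HNF4 pattern over a shared footprint.

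**Figure D4:**
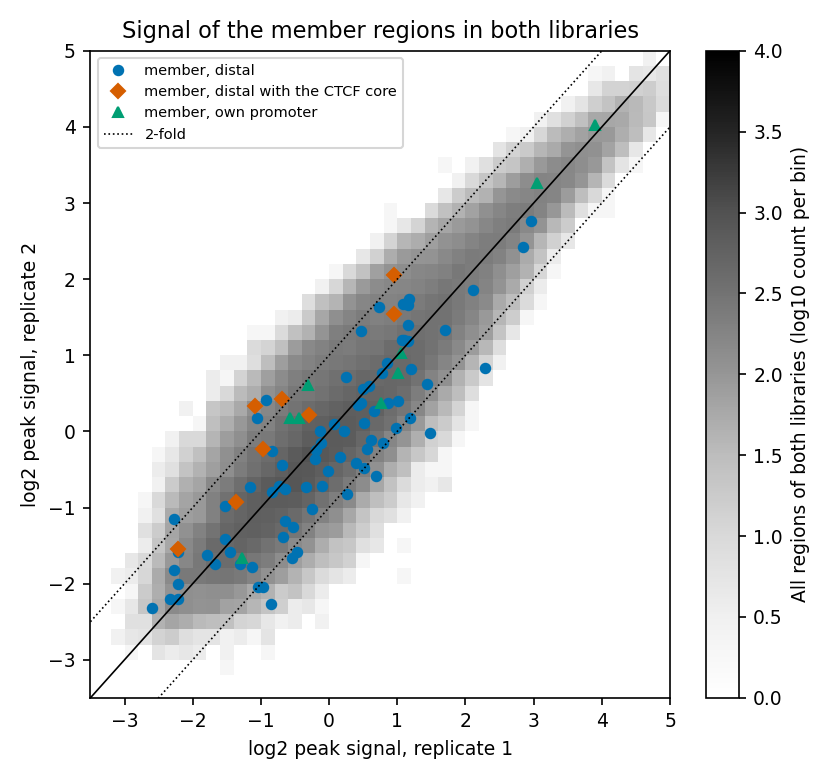
Log2 peak signal of the member regions in replicate 1 (horizontal) and replicate 2 (vertical), over the density of all 96735 regions of both libraries in grey, with the line of equality (solid) and 2-fold lines (dotted). Promoter regions (triangles) stay within 2-fold, and the 8 distal regions with the CTCF core (diamonds) all lie above the line of equality.

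The CTCF core was chosen after the sequences had been seen, since it recurred in them. It was found in the central 200 bases of 8 of the 86 distal regions (9.30%), beside 5.23% of all distal regions. The 8 lie in the windows of Podxl (2 regions), Nphs1, Ptpro, Cd2ap, Actn4, Plce1 and Clic5, and in neither that of Synpo nor that of Magi2. In 5 of them the match overlapped a shared footprint (Nphs1, Clic5, Plce1, Actn4 and 1 of Podxl). At least 50% of the bases were repeat-masked in 3 of them (Nphs1, Podxl and Cd2ap). The same held for 5.81% of the member distal regions and 3.79% of all distal regions. Neither share was computed over all distal regions with the core. A longer CTCF pattern matched 1 further distal region, at chr7:30490301-30490500 downstream of Nphs1 (0.480 and 1.13), and the Clic5 promoter region within a shared footprint.

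All 8 core regions were higher in replicate 2, with log2 ratios from 0.43 to 1.42. Over all 4044 distal regions with the core, 88.1% were higher in replicate 2 and the median log2 ratio was 0.78. Over the 2462 distal regions with the longer CTCF pattern these values were 94.9% and 0.90. The members thus followed the whole set. Among the 77 member distal regions with neither pattern, 40.3% were higher in replicate 2, beside 41.6% of all such regions. Distal regions with the patterns of the tubule regulators HNF1 and HNF4 lay the other way, with medians of -0.64 and -0.41 over all. The difference between the libraries thus moved with the sequence pattern, and whether it came from the tissue or the assay was not tested.

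**Figure D5:**
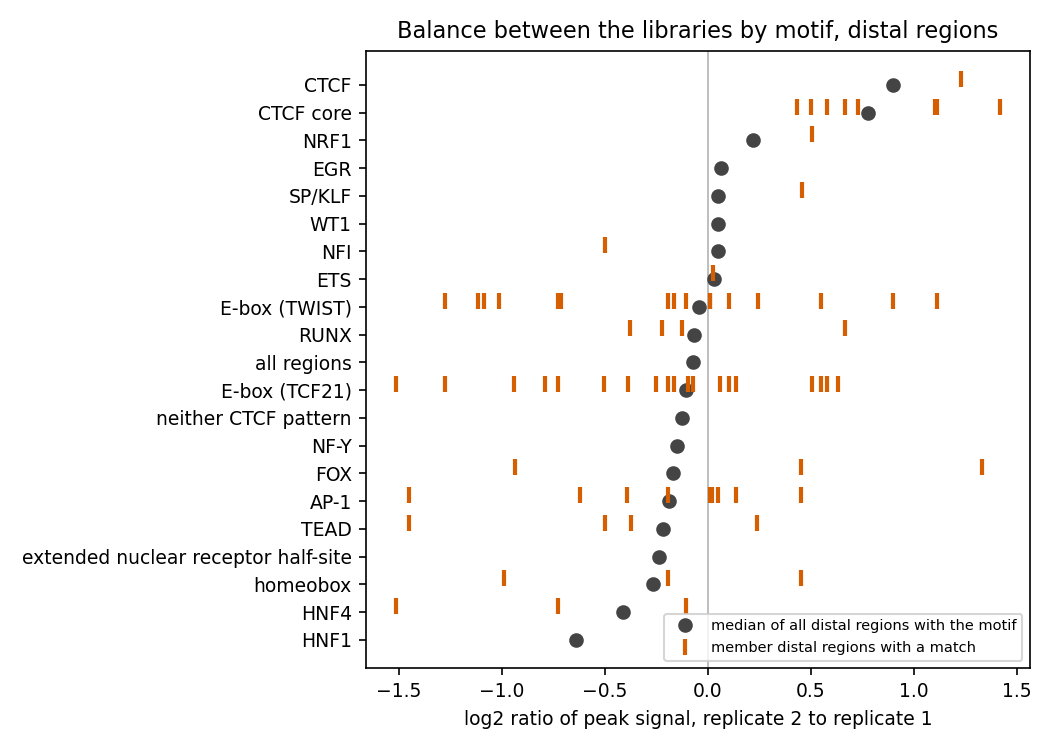
Median log2 ratio of signal (replicate 2 over replicate 1) for all distal regions with each sequence pattern in their central 200 bases (circles; patterns with at least 50 such regions) and the single member regions with a match anywhere in the region (ticks). The CTCF patterns lie to the right, at 0.78 and 0.90, with the member regions beside them, and HNF4 and HNF1 lie to the left.

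Patterns of factors known in podocytes were found at shares near those of all regions, or in single regions. The WT1 pattern GCGTGGGAG was found in 1 of the 9 promoter regions, that of Actn4, where it overlaps a shared footprint, beside 0.475% of all promoter regions, and in 0 of 86 distal regions, beside 0.165%. The E-box CAGCTG, which TCF21 and other helix-loop-helix factors bind, was found in 18 distal regions (20.9%), beside 17.3%. The homeobox pattern TAATTA was found in 1 (1.16%), beside 4.63%. These shares are descriptions of letters and say nothing of binding.

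Single-library peaks were unevenly spread. The member windows held 52 joined peaks of replicate 1 only and 18 of replicate 2 only among 167, beside 23.5% and 16% of all joined peaks. Actn4 had 16 of replicate 1 only and 0 of replicate 2 only. A split of 10 or more against none was seen in 0.0738% of all genes (0.0554% in the opposite direction). Genes with fewer than 10 joined peaks cannot meet this, and the share among genes with as many peaks as Actn4 was not computed. In the Actn4 window replicate 1 listed 8.62 kb at the FDR threshold and replicate 2 listed 3.95 kb. The lowest peak called in the Actn4 window had a signal of 0.496 in replicate 1 and 1.08 in replicate 2, and 11 of the 16 single-library peaks were below 1.08. With 250 kb added on each side, the lowest called signals were 0.256 and 0.308. Of the 11 distal regions of both libraries in Actn4, 8 were higher in replicate 1. A local difference in calling was not tested.

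Promoter regions of genes that work with the members, and of other kidney cell types, are given by count beside the 63% of all protein-coding genes with one, and no difference between lists was tested. Of 20 slit diaphragm, adhesion and actin partners, 18 had a promoter region (90%), led by the adaptor gene Nck1 (13.4 ± 0.138), the motor gene Myo1e (8.41 ± 0.590) and the scaffold gene Magi1 (6.54 ± 0.408), all made in many cell types. Kirrel2 and Crb2, a polarity gene of the podocyte, had none. All 10 other podocyte genes had one, with a median signal of 3.14, beside 4.78 over all open genes. Rhpn1 (6.76 ± 1.50) and Vegfa (5.75 ± 1.18) were the highest of them. All 6 parietal epithelial genes had one, led by Pax8 (5.93 ± 1.08), Cldn1 (3.24 ± 1.55) and Krt8 (2.82 ± 0.193). The 10 proximal tubule genes were led by Pck1 (7.07 ± 0.780), Miox (5.88 ± 0.563) and Lrp2 (5.39 ± 0.378). Of 8 genes of the thick ascending limb, distal tubule and collecting duct, 7 had one, led by Umod (5.35 ± 2.00), Scnn1g (5.06 ± 1.22) and Slc12a1 (1.71 ± 0.283), and Aqp2 had none. All 8 endothelial genes had one, led by Ehd3 (5.15 ± 0.330), Tie1 (2.56 ± 1.05) and Eng (2.36 ± 0.285). Of 8 stromal and mural genes, 5 had one (62.5%), led by Cspg4 (2.67 ± 0.213), Pdgfra (2.41 ± 1.02) and Itga8 (1.58 ± 1.00), and Acta2, Ren1 and Tagln had none. The Cspg4 promoter region also overlaps a promoter window of Odf3l1. The 8 immune genes without a promoter region include Ptprc and Cd3e. The part of other cell types in the signal of the widely made members was not tested.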

How the data were processed

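Per the file headers, the authors deposited peak lists, footprints and cut-rate lists for each library on mm10, made without pooling. The aligner and the callers of peaks and footprints were not given in the sources used here. The deposited peaks carry the authors' signal. The cut-rate lists carry a false discovery rate, a q-value (p-value adjusted by the authors), with runs under 0.05 used. Footprints carry a constant p-value or q-value level of 0.01 in the deposited files, so they are used as present or absent.

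Peaks of the longer list were joined where they overlapped by 1 base. Genes, starts and lengths came from GENCODE M21 and bases from GRCm38.p6, and 37 of 37 member transcripts read the same in both. A promoter window was 500 bases before to 500 after any start of a protein-coding transcript. Shared footprints are footprints of both libraries that overlap by at least 1 base, joined into a single span. Joining was tested on simulated data. Tools were Python 3.11.15, numpy 2.4.6, pandas 2.3.3 and matplotlib 3.10.9. Members, lists and patterns were chosen with earlier results of these data known, so counts stand beside those of all genes and no test was made. The rule for named genes was all members, and in each other list up to 3 genes with the highest promoter signal and up to 3 without a promoter region. Depth is not given as counts, so no interval was computed.

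Patterns were searched on both strands in the central 200 bases of each region: SP/KLF GGGGCGGGG, NF-Y CCAATCA, ETS CCGGAAGT, AP-1 TGANTCA, TEAD ACATTCC, FOX TGTTTAC, homeobox TAATTA, E-boxes CAGCTG and CATCTG, HNF4 CAAAGTCCA, extended nuclear receptor half-site TCAAGGTCA, WT1 GCGTGGGAG, RUNX TGTGGTTT and EGR GCGTGGGCG, and consensus sequences of CTCF, NRF1, HNF1 and NFI. The CTCF core, an 11-base pattern with 2 free bases whose matches are shown in the text, was added after the member sequences had been seen. A homeobox match can lie inside an HNF1 match. Of the genes that the rule names, 2 are not reported here, nor is 1 of the patterns.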

Additional observations from a re-analysis of the deposited data

How the results depend on the processing

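The number of members with a promoter region, 6, stayed between 5 and 7. Synpo lost its region with the shorter peak list and when only the most upstream start was used, Ptpro gained one (0.208) with windows of 2000 bases, and Plce1 gained one without replicate 1. The 86 distal regions became 52 with the shorter peak list and 41 with peaks at or above the median signal, and 102 to 136 when 1 library was left out. Without replicate 2, Actn4 had 26 distal regions in place of 11, and Magi2 had 41 in place of 25. The 128 shared footprints became 204 with 50 kb flanks, and 272 to 322 footprints of a single library when 1 library was left out. The 30.4 kb listed in both libraries became 17.0 kb at an FDR under 0.001. Leaving out a library removes the demand that both agree, so counts rise by construction. With 50 kb flanks Nphs1 had 8 distal regions, with the gene body alone it had 0, and with promoter windows of 2000 bases 2. The strongest promoter signal of Cd2ap fell to 0.931 and that of Magi2 to 0.365 with windows of 100 bases, because their main regions lie further before the start. With windows of 2000 bases the strongest promoter signal of Synpo rose to 2.65. Of the distal counts of single members under these settings, 25 moved by over 1.5 times and 65 did not. No paired analysis was possible because there is 1 group only. The 2 libraries of 1 group give no estimate of the variation between animals.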
